A study of Mus musculus with 4 samples.

Results

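Expression of 54 genes of the mitotic machinery was followed through the induction of CXCL14 in a mouse tumour cell line. The genes encode mitotic kinases and cyclins, the spindle checkpoint, kinetochore and spindle proteins, condensin, and factors of cytokinesis. They were chosen for their known roles, with earlier results of these data known, and all 54 were found among the 22186 genes listed. RNA was sequenced from MC38, a line labelled as mouse colon cancer cells, stably carrying a TetOn-CXCL14 construct, in which doxycycline switches on the chemokine gene. All 4 libraries came from this line, harvested after 72 h: 2 control cultures with PBS as solvent alone and 2 induced cultures with doxycycline at 1 µg/mL. The series text describes the 2 samples of a group as biological replicates. The same cell line and construct are in both groups, and no culture had doxycycline without the construct, so effects of the drug and of CXCL14 cannot be told apart. No label says whether the line is a single clone or which species the transgene comes from. Levels are in TPM, a unit of transcript abundance in which values are scaled by transcript length and to a fixed library total, of which the listed genes held 97.2% to 97.6%. Neither deposited table holds read counts, so the depth behind each value is unknown. Cxcl14 itself, the induced gene, measured 27.3 and 29.2 TPM in the solvent cultures and at 385 and 391 TPM in the induced cultures.

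The label of the cells was set against its defining markers. All 7 epithelial markers, among them Epcam, Cdh1, Krt19 and Cdx2, were below 1 TPM in every library, with Cdh1, Krt19 and Cdx2 listed at 0 throughout. Of 8 fibroblast markers, 5 had a mean of at least 1 TPM. The others, Col1a2, Lum and Fap, were below 1 TPM in every library. The summed level of all 8 was 4053 to 4205 TPM in the controls and 823 to 909 TPM in the induced cultures. Dcn led this sum, with group means of 3167 TPM without and 474 TPM with doxycycline, followed by Col3a1. Col1a1 was low and did not pass, with group means of 2.29 and 2.70 TPM and overlapping groups. Of 8 macrophage markers, 1 (Cd68) had a mean of at least 1 TPM and 3 (Laptm5, C1qa and C1qc) were listed at 0, with sums of 7.33 to 8.31 and 4.83 to 5.29 TPM, and the 5 endothelial and 7 lymphocyte markers were all below 1 TPM. The part that the falls of Dcn, Col3a1, Pdgfra and Pdgfrb played in the results below was not tested.

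Entry into mitosis is driven by the kinase CDK1 bound to A- and B-type cyclins. WEE1 holds the kinase inactive by phosphorylation and the CDC25 phosphatases remove that block. Aurora and Polo kinases then build the spindle, kinetochores couple chromosomes to microtubules, and the spindle checkpoint restrains the anaphase-promoting complex (APC/C) until every chromosome is attached. The APC/C with its coactivator CDC20 then marks cyclin B and securin for destruction, separase opens cohesin, and a contractile ring divides the cell. Most of these genes are transcribed late in the cell cycle, and their RNA is therefore used as a readout of proliferating cells.

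Many promoters of this programme carry a CHR element (cell cycle genes homology region), a short site contacted by the MuvB complexes that hold MYBL2 and FOXM1 or the repressive DREAM proteins, together with CCAAT boxes, the sites of NF-Y. Of the 54 genes, 44 were matched by symbol to RefSeq promoter windows (build GRCm38.p6, from 250 bases before to 50 after an annotated start), giving 47 windows. Bub3, Ect2 and Prc1 each have overlapping windows from more than a single start, so their sites were counted more than once. Ccna2, Cdc25c, Wee1, Aurkb, Incenp, Spc24, Tpx2, Kif20a, Smc4 and Foxm1 were not matched. A CHR, searched as TTTGAA or TTCGAA on both strands, stood in 36 of the 47 windows (76.6%), against 19.2% of all 32851 promoter windows of the same length. CCAAT, searched on both strands and able to share at most an end base with a CHR, stood in 36 windows (76.6%) against 37.4% of all, and both motifs stood in 32 (68.1%) against 7.52% of all.

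The promoter sequences below were chosen because both motifs lie within the 100 bases just upstream of the annotated start, so that genes called higher, called lower and not called can be read side by side. They are printed 5′ to 3′ on the strand of the gene, with CHR and CCAAT matches of either orientation in capitals.
Cdc20, higher after doxycycline, chr4:118437344-118437443, minus strand: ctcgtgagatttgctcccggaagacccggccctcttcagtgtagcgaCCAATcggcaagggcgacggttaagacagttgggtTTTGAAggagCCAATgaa
Prc1, higher, chr7:80294376-80294475, plus strand: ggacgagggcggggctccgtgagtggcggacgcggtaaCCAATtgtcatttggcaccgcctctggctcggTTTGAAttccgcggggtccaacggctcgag
Cdk1, lower, chr10:69352913-69353012, minus strand: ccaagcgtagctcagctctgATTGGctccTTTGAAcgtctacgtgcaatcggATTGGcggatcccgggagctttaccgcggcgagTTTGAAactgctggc
Kif11, lower, chr19:37376282-37376381, plus strand: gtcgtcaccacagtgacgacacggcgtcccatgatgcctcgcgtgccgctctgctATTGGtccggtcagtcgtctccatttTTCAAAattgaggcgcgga
Top2a, lower, chr11:99024190-99024289, minus strand: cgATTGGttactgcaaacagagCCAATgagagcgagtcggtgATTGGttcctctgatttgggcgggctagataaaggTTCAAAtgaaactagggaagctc
Bub3, not past the threshold, chr7:131560270-131560369, plus strand: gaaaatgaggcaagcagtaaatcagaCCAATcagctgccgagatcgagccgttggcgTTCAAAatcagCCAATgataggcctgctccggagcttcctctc
Espl1, not past the threshold, chr15:102296193-102296292, plus strand: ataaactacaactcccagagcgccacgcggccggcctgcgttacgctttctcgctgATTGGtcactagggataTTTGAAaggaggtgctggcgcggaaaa
Ube2c, not past the threshold, chr2:164769829-164769928, plus strand: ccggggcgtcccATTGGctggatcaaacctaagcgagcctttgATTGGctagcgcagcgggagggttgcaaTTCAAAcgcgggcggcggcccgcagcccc
These coordinates are of GRCm38.p6, while the submitters' processing notes name mm39 for the expression values. In these windows the CHR nearest to the start began between 15 bases upstream of it (Cdk1) and 43 bases upstream (Bub3). By call, a CHR stood in 17 of 23 windows of genes that were lower, in 6 of 6 windows of genes that were higher (4 genes), and in 13 of 18 windows of genes that did not pass. The overlapping windows of Ect2, Prc1 and Bub3 count the same sites again in the last 2 of these shares. These matches are a description of letters and not of occupied sites.

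After doxycycline the mitotic genes differed by small amounts and mostly downward. Of the 54, 28 were lower, 5 were higher and 21 did not pass (limma on log2(TPM + 1), adjusted p under 0.05 over 11359 genes). Without DOX replicate 2, 1 was higher and 26 were lower. Only Cdc25b, the phosphatase that starts CDK1 activation, changed by more than 1 on the log2 scale. Among all genes tested 64.4% were called, 29.0% as higher and 35.4% as lower, so the 33 calls among the 54 genes (61.1%) are near the background, with 51.9% lower and 9.26% higher. A change of at least 1 in size was called for 11.2% of all genes tested. The median log2 change was -0.21 over the 54 genes and -0.04 over all genes tested, and the median size of a change was 0.25 against 0.33. In 44 of the 54 the change was under 0.5 in size. The counts by role below are to be read beside the same shares of all genes tested.

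The groups could also be read without a model. In 34 of the 54 genes both doxycycline values lay below both controls, in 8 both lay above, and in 12 the groups overlapped. Groups were apart for 77.8% of the mitotic genes and for 82.7% of all genes tested, of which 45.0% had doxycycline below and 37.7% above. All 54 had a mean of at least 1 TPM and were tested, with means from 9.83 TPM (Cdc25c) to 188 TPM (Top2a) and a median of 40.5 TPM. Summed over the 54 genes, the level was 2688 and 2725 TPM in both solvent libraries and at 2345 and 2503 TPM with doxycycline. In such bulk samples fewer cells in mitosis and less RNA per cell cannot be told apart. Scaling between libraries shifts the balance: 21 were lower and 6 higher under median-of-ratios scaling, and 20 lower and 6 higher under quantile normalization. Over all genes tested the calls went from 4017 lower and 3295 higher to 3674 and 3649 with the first, and to 3356 and 3870 with the second. The smallest two-sided p that an exact permutation test of 2 against 2 can reach is 0.33, so a call for 1 gene leans on the variance that limma pools over genes.

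**Figure D1:**
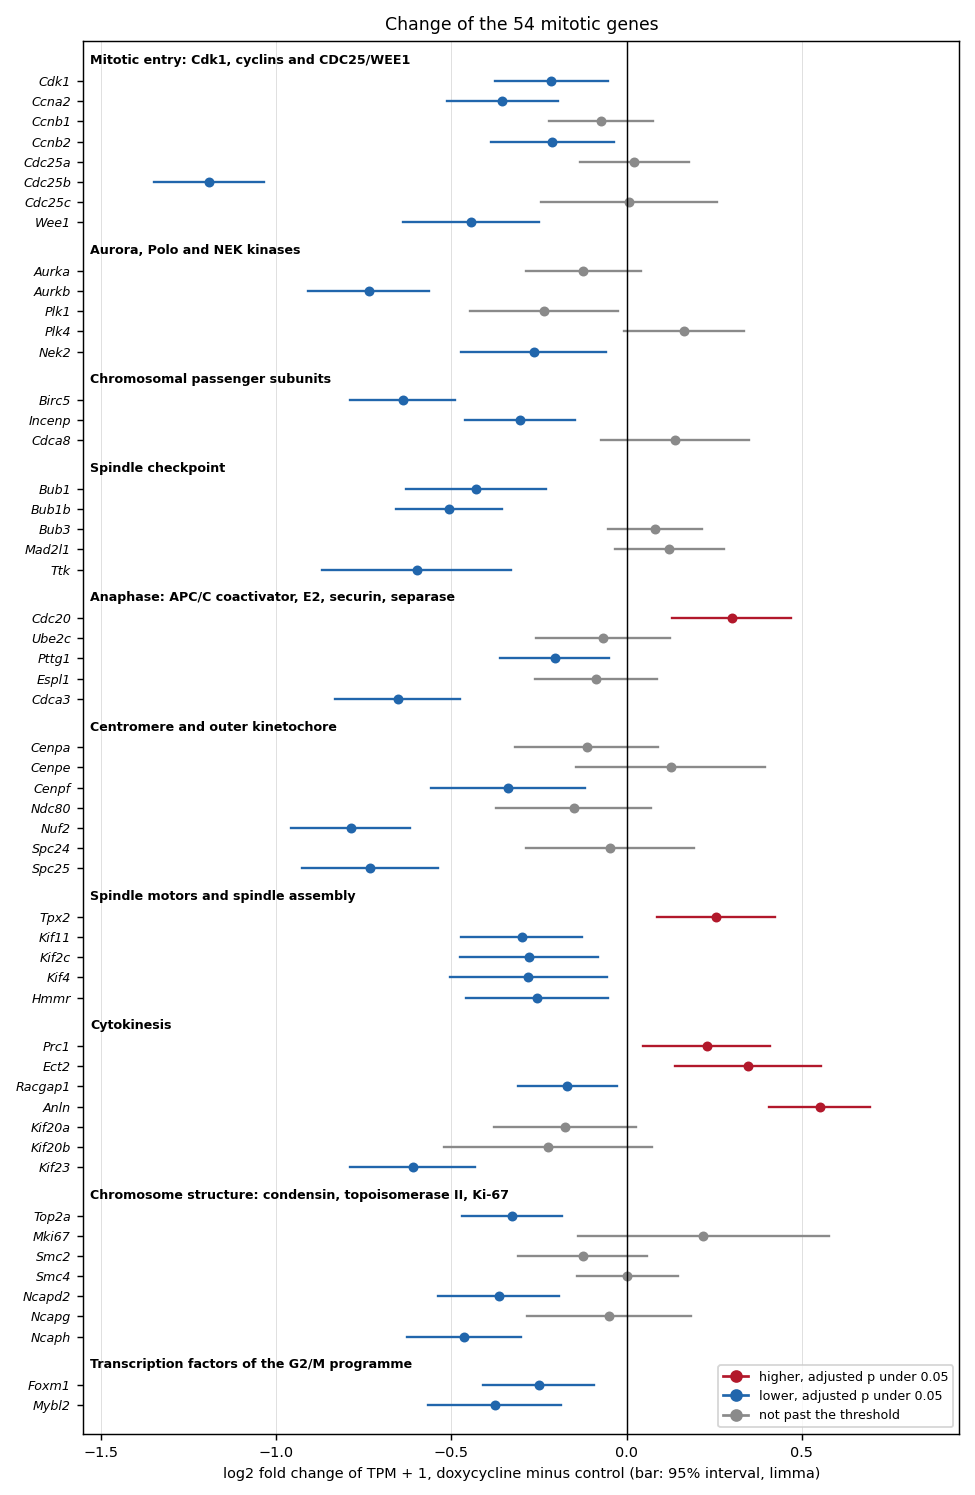
Change of each of the 54 genes, grouped by role. The x axis is the log2 fold change of TPM + 1, doxycycline minus control, with 2 libraries per group; points are limma estimates, bars their unadjusted 95% intervals, and colours the call at an adjusted p under 0.05. The 28 lower genes (blue) spread from Cdc25b at -1.19 to Racgap1 at -0.17, and the 5 higher genes (red) are Cdc20, Tpx2, Prc1, Ect2 and Anln.

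Of the 8 genes that control entry into mitosis, 0 were higher and 5 were lower. Cdc25b stood at 71.3 and 66.8 TPM in the solvent cultures and at 29.4 and 29.9 TPM in the induced cultures. Both treated cultures lay far below both controls, with a fall from 69.1 ± 3.20 to 29.7 ± 0.308 TPM (SD, n = 2 here and below), or log2 -1.19 (SE 0.07, limma adjusted p = 7.9e-07). The other members of this phosphatase family did not pass. Cdc25a, which acts from the G1/S transition on, stood at 40.5 and 38.8 TPM in both solvent libraries and at 40.3 and 40.2 TPM with doxycycline, with an interval of the log2 change from -0.13 to 0.18. Cdc25c, the family member of late G2, stood at 10.5 and 9.11 TPM and at 9.33 and 10.4 TPM, with an interval from -0.24 to 0.26. In both genes the groups overlapped.

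Wee1, which encodes the kinase opposing CDC25, fell from 26.3 and 23.9 TPM to 17.6 and 18.7 TPM (log2 -0.44, SE 0.09, adjusted p = 0.0015). Ccna2, the cyclin of S phase and early mitosis, fell from 48.0 and 45.7 TPM to 37.3 and 35.6 TPM (log2 -0.35, SE 0.07, adjusted p = 0.0018). The groups were apart in both. Cdk1 stood at 47.0 and 47.8 TPM in the solvent cultures and at 39.1 and 42.4 TPM in the induced cultures, apart but by less (log2 -0.22, SE 0.07, adjusted p = 0.025). Its cyclin partner Ccnb2 fell from 44.1 ± 3.47 to 37.9 ± 1.26 TPM (log2 -0.21, adjusted p = 0.038). Ccnb1, the main mitotic cyclin, was at 74.1 and 76.4 TPM in both solvent libraries and at 68.9 and 74.2 TPM with doxycycline, so the groups overlapped and the interval of the change ran from -0.22 to 0.08. The calls of Cdk1 and Ccnb2 were the weakest of this group. That of Cdk1 was lost without control replicate 1, control replicate 2 or DOX replicate 1 (adjusted p = 0.062, 0.085 and 0.20), and that of Ccnb2 without control replicate 2, DOX replicate 1 or DOX replicate 2 (0.19, 0.17 and 0.063). Both were also lost under median-of-ratios scaling (0.064 for Cdk1 and 0.092 for Ccnb2) and quantile normalization (0.062 and 0.14), and Ccnb2 with no filter (0.078) and no variance trend (0.067).

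Among the Aurora, Polo and NEK kinases, 0 of 5 were higher and 2 were lower. Aurkb, the kinase of the chromosomal passenger complex that corrects wrong attachments, stood at 41.3 and 38.5 TPM in the solvent cultures and at 24.0 and 23.1 TPM in the induced cultures (log2 -0.74, SE 0.08, adjusted p = 3.0e-05). The centrosome kinase Nek2 fell from 32.3 and 27.5 TPM to 24.0 and 25.2 TPM (log2 -0.27, SE 0.09, adjusted p = 0.030). Both genes had every treated value below every control. Aurka, the spindle pole kinase, was at 45.8 and 42.9 TPM and at 41.8 and 39.3 TPM, apart but with an interval that ran from -0.29 to 0.04. Plk1, which acts from mitotic entry to cytokinesis, was at 43.0 and 39.0 TPM and at 31.8 and 37.6 TPM, beside the threshold (log2 -0.24, adjusted p = 0.051). Plk4, the kinase of centriole duplication, was at 39.1 and 41.2 TPM and at 42.9 and 47.4 TPM (log2 0.16, interval -0.01 to 0.34). Plk4 was thus the kinase of this group with treated values above the controls, and it passed under median-of-ratios scaling and quantile normalization (adjusted p = 0.037 and 0.036). Plk1 passed without DOX replicate 2 (adjusted p = 0.010), with the replicate block (0.034), with a robust variance model (0.042) and with a stricter filter at 5 TPM (0.045). The call of Nek2 was lost without control replicate 1 or DOX replicate 1 (0.18 and 0.11), under median-of-ratios scaling (0.058) and quantile normalization (0.18), with no filter (0.086) and with no variance trend (0.052).

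The chromosomal passenger complex joins Aurora B to 3 further subunits, of which 0 were higher and 2 were lower. Birc5, which encodes survivin, stood at 97.9 and 90.4 TPM in both solvent libraries and at 60.8 and 59.2 TPM with doxycycline, well apart (log2 -0.64, SE 0.07, adjusted p = 3.1e-05). The scaffold Incenp fell from 87.1 and 93.3 TPM to 69.8 and 75.9 TPM (log2 -0.31, SE 0.07, adjusted p = 0.0039). Cdca8, which encodes borealin, stood at 52.9 and 55.5 TPM and at 54.1 and 66.1 TPM, with overlapping groups and an interval from -0.07 to 0.35. The induced cultures stood well apart from each other in Cdca8, and without DOX replicate 1 it passed as higher (adjusted p = 0.022).

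Of 5 spindle checkpoint genes, 0 were higher and 3 were lower, and those 3 encode the kinases and the kinase-like member of the pathway. Bub1b, which encodes BUBR1, an inhibitor of CDC20, stood at 61.9 and 62.3 TPM in the solvent cultures and at 42.1 and 44.8 TPM in the induced cultures (log2 -0.51, SE 0.07, adjusted p = 1.4e-04). Ttk, the kinase MPS1 that starts the checkpoint signal, fell from 18.0 and 21.3 TPM to 11.4 and 13.9 TPM (log2 -0.60, SE 0.12, adjusted p = 0.0018). Bub1, which recruits checkpoint proteins to the kinetochore, fell from 21.0 and 22.6 TPM to 15.3 and 16.6 TPM (log2 -0.43, SE 0.09, adjusted p = 0.0022). The 3 calls held when any library was left out. Mad2l1, which encodes the MAD2 protein that captures CDC20, was at 68.3 and 75.4 TPM and at 77.1 and 79.3 TPM, with an interval from -0.03 to 0.28. Bub3, the adaptor of BUB1 and BUBR1, was at 122 and 118 TPM and at 124 and 129 TPM, with an interval from -0.05 to 0.22. In both genes the treated values lay above the controls without passing, and Mad2l1 passed without control replicate 2 (adjusted p = 0.0496).

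Around the APC/C, 1 of 5 genes was higher and 2 were lower. Cdc20, the coactivator that opens anaphase, stood at 75.7 and 72.4 TPM in both solvent libraries and at 85.7 and 97.5 TPM with doxycycline. It rose from 74.1 ± 2.31 to 91.6 ± 8.32 TPM (log2 0.30, SE 0.07, adjusted p = 0.0063), with the groups apart. Cdca3, which encodes an adaptor for the destruction of WEE1, fell from 40.4 and 44.8 TPM to 26.1 and 27.2 TPM (log2 -0.65, SE 0.08, adjusted p = 7.9e-05). Pttg1, which encodes securin, the inhibitor of separase, fell from 56.9 and 60.0 TPM to 49.0 and 52.2 TPM (log2 -0.21, SE 0.07, adjusted p = 0.026). Cdca3 fell by more than securin, and both had groups apart. Espl1, which encodes separase, was at 28.6 and 26.8 TPM and at 25.6 and 26.4 TPM, with an interval from -0.26 to 0.09. Ube2c, the ubiquitin-conjugating enzyme of the APC/C, was at 98.2 and 106 TPM and at 89.8 and 106 TPM, with overlapping groups and an interval from -0.26 to 0.12. The call of Cdc20 was lost without DOX replicate 2 (log2 0.21, adjusted p = 0.073), and that of Pttg1 without control replicate 2 or DOX replicate 1 (0.11 and 0.18), under median-of-ratios scaling (0.071) and with no variance trend (0.053).

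Of 7 centromere and outer kinetochore genes, 0 were higher and 3 were lower. The NDC80 complex, the microtubule hook of the kinetochore, has 4 subunits, and 2 of them fell. Nuf2 stood at 47.1 and 50.1 TPM in the solvent cultures and at 26.8 and 28.7 TPM in the induced cultures (log2 -0.79, SE 0.08, adjusted p = 1.8e-05). Spc25 fell from 25.2 and 24.4 TPM to 15.2 and 13.9 TPM (log2 -0.73, SE 0.09, adjusted p = 6.7e-05). After Cdc25b, the fall of Nuf2 was the largest of the 54, and both of these calls held when any library was left out. Their partners stayed nearer to the controls. Ndc80 was at 15.8 and 18.4 TPM and at 15.3 and 15.2 TPM, with an interval from -0.37 to 0.07. Spc24 was at 12.9 and 15.2 TPM and at 12.9 and 14.2 TPM, with an interval from -0.29 to 0.19.

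Cenpf, a large kinetochore protein that peaks in G2, fell from 13.4 and 14.9 TPM to 10.7 and 11.2 TPM (log2 -0.34, SE 0.10, adjusted p = 0.013). Cenpe, the kinetochore motor that moves chromosomes to the spindle equator, was at 13.3 and 17.1 TPM and at 15.9 and 17.2 TPM. Cenpa, the histone H3 variant that marks the centromere, was at 50.5 and 42.4 TPM and at 41.4 and 44.0 TPM. Groups overlapped in Cenpe and Cenpa, with intervals from -0.14 to 0.40 and from -0.32 to 0.09. The call of Cenpf was lost without control replicate 2 or DOX replicate 1 (adjusted p = 0.076 and 0.057) and under quantile normalization (0.26), and Cenpa passed without control replicate 2 (0.045).

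All 5 genes of spindle motors and spindle assembly passed, 4 as lower and 1 as higher, where 64.4% of all genes tested were called. Kif11, the plus-end motor that pushes the spindle poles apart, stood at 27.0 and 28.0 TPM in both solvent libraries and at 21.8 and 22.6 TPM with doxycycline (log2 -0.30, SE 0.08, adjusted p = 0.0073). Kif4, a chromosome-bound motor, fell from 23.7 and 25.0 TPM to 18.1 and 21.7 TPM (log2 -0.28, adjusted p = 0.032), and Kif2c, a microtubule depolymerase, from 25.1 and 25.1 TPM to 19.2 and 21.9 TPM (log2 -0.28, adjusted p = 0.020). These falls were of like size, with treated values below the controls in each gene. Hmmr, a spindle assembly factor, fell from 22.5 ± 2.11 to 18.6 ± 0.268 TPM (log2 -0.26, adjusted p = 0.032). Tpx2, which activates Aurora A on spindle microtubules, moved the other way, from 61.9 and 57.3 TPM to 67.7 and 75.0 TPM (log2 0.26, SE 0.07, adjusted p = 0.014). The call of Kif11 was lost under quantile normalization (adjusted p = 0.071), but with no library left out. Tpx2 lost its call without control replicate 2 or DOX replicate 2 (adjusted p = 0.091 and 0.13). Kif4 and Kif2c lost theirs without control replicate 1, control replicate 2 or DOX replicate 1 (0.078, 0.15 and 0.27 for Kif4, and 0.074, 0.073 and 0.17 for Kif2c), and Hmmr without control replicate 2, DOX replicate 1 or DOX replicate 2 (0.17, 0.11 and 0.075). The calls of these 3 genes were also lost under quantile normalization (0.24 for Kif4, 0.17 for Kif2c and 0.33 for Hmmr) and with no filter (0.097, 0.055 and 0.078). Under median-of-ratios scaling Kif4 and Hmmr lost theirs (0.064 and 0.068), and Kif4 with no variance trend (0.053).

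Cytokinesis genes went both ways, with 3 of 7 higher and 2 lower. Anln, which encodes the contractile ring scaffold anillin, stood at 80.1 and 79.5 TPM in the solvent cultures and at 113 and 122 TPM in the induced cultures. Its rise from 79.8 ± 0.413 to 117 ± 6.55 TPM was the largest on the log2 scale among the 54 (0.55, SE 0.06, adjusted p = 6.4e-05) and held when any library was left out. Ect2, the exchange factor that activates RhoA at the cell equator, rose from 24.8 and 24.3 TPM to 28.9 and 34.3 TPM (log2 0.35, SE 0.09, adjusted p = 0.0088). Prc1, which bundles microtubules of the central spindle, rose from 56.9 ± 3.93 to 66.8 ± 5.56 TPM (log2 0.23, adjusted p = 0.031). In all 3 the treated values lay above both controls.

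The centralspindlin complex, which recruits ECT2, is made of the products of Kif23 and Racgap1, and both were lower. Kif23 stood at 34.3 and 37.6 TPM in both solvent libraries and at 23.0 and 23.3 TPM with doxycycline (log2 -0.61, SE 0.08, adjusted p = 1.2e-04). Racgap1 fell from 130 ± 6.65 to 115 ± 0.889 TPM (log2 -0.17, adjusted p = 0.038). The fall of Kif23 was the firmer, with its call kept in each of the 14 alternative settings against 7 for Racgap1. Kif20a, a motor that brings Aurora B to the midzone, was at 38.6 and 36.8 TPM and at 30.6 and 36.2 TPM, with an interval from -0.38 to 0.03. Kif20b, a motor of late cytokinesis, was at 10.5 and 14.1 TPM and at 10.2 and 10.4 TPM, with an interval from -0.52 to 0.07. In these motor genes the treated values lay below the controls without passing. Leaving out libraries changed several of these calls. Ect2 lost its call without control replicate 2 or DOX replicate 2 (adjusted p = 0.056 and 0.098), Prc1 without control replicate 1 or DOX replicate 2 (0.18 and 0.24), and Racgap1 without control replicate 1, DOX replicate 1 or DOX replicate 2 (0.14, 0.12 and 0.16). Prc1 also lost its call with no filter (0.089) and no variance trend (0.073), and Racgap1 in those settings (0.057 and 0.089), with FPKM (0.057) and under median-of-ratios scaling (0.11). Kif20a passed as lower without DOX replicate 2 (0.028) and Kif20b without control replicate 1 (0.018).

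Of 7 genes of mitotic chromosome structure, 0 were higher and 3 were lower. Top2a, the enzyme that untangles sister chromatids and the most abundant of the 54 in TPM, stood at 203 and 216 TPM in the solvent cultures and at 162 and 171 TPM in the induced cultures (log2 -0.33, SE 0.06, adjusted p = 0.0015). Ncaph, the kleisin that closes the condensin I ring, fell from 48.2 and 44.5 TPM to 33.1 and 33.5 TPM (log2 -0.46, SE 0.07, adjusted p = 4.1e-04). Ncapd2, a regulatory subunit of the same complex, fell from 70.1 and 62.1 TPM to 49.5 and 52.5 TPM (log2 -0.37, SE 0.08, adjusted p = 0.0025). These 3 calls held when any library was left out. The other condensin genes did not pass. Smc2 and Smc4 encode the paired ATPases of both condensins. Smc2 was at 45.5 and 50.7 TPM and at 41.8 and 46.3 TPM (interval -0.31 to 0.06), and Smc4 at 91.2 and 89.9 TPM and at 87.5 and 94.0 TPM (interval -0.14 to 0.15). Ncapg was at 27.1 and 33.7 TPM and at 28.4 and 30.0 TPM (interval -0.28 to 0.18). All 3 had overlapping groups.

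Mki67, which coats mitotic chromosomes and is the usual marker of proliferation, was at 31.9 and 49.1 TPM in both solvent libraries and at 45.3 and 47.4 TPM with doxycycline. Both treated values lay between the controls, and the interval of the log2 change, from -0.14 to 0.58, was the widest of the 54. The estimate turned with the control library that was left out. Without control replicate 2 Mki67 passed as higher (log2 0.52, adjusted p = 0.0027), and without control replicate 1 it stood at -0.08 and did not pass.

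Both transcription factors of the late cell cycle were lower. Foxm1, an activator of G2/M genes, stood at 46.4 and 43.7 TPM in the solvent cultures and at 38.0 and 37.4 TPM in the induced cultures (log2 -0.25, SE 0.07, adjusted p = 0.011). Mybl2, which joins MuvB at such promoters, fell from 21.4 and 23.2 TPM to 16.9 and 16.9 TPM (log2 -0.38, SE 0.08, adjusted p = 0.0035). The groups were apart in both. Foxm1 lost its call without control replicate 1 or DOX replicate 2 (adjusted p = 0.056 and 0.060), while that of Mybl2 held when any library was left out.

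**Figure D2:**
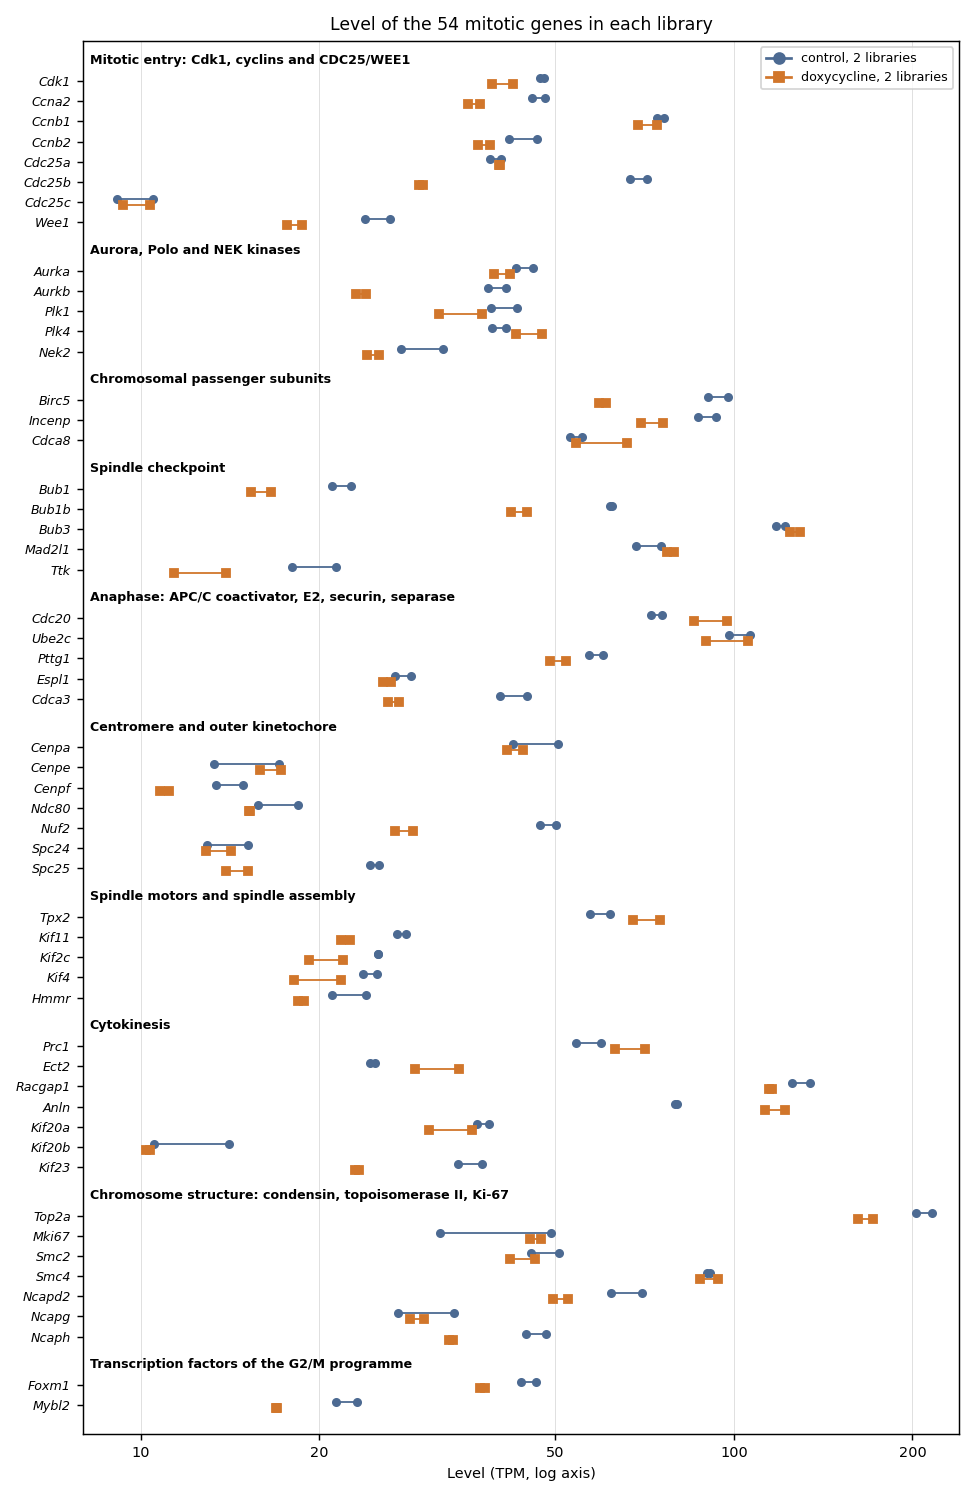
Level of the 54 genes in TPM on a log axis, grouped by role. Circles are the 2 control libraries and squares the 2 doxycycline libraries, joined by a line within a group. Cdc25b, Aurkb, Nuf2 and Spc25 show wide gaps between the groups, Anln shows the clearest rise, and the control libraries of Mki67 lie at 31.9 and 49.1 TPM.

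Because TPM are scaled by length, partner genes can be set beside each other within a library. The ratios of 11 pairs are given as a description: the pairs were chosen after the values were seen, many of them setting a gene that fell beside a partner that did not pass, so the choice itself largely fixed that the groups are apart. Transcripts of Nuf2 outnumbered those of Ndc80 by a ratio of 2.98 and 2.72 in the solvent cultures and 1.75 and 1.89 in the induced ones, and Spc25 those of Spc24 by 1.95 and 1.61 in the controls. In the treated cultures the Spc25 to Spc24 ratio was 1.18 and 0.978. In the passenger complex the ratio of Aurkb to Cdca8 went from 0.780 and 0.693 to 0.444 and 0.349, that of Birc5 to Cdca8 from 1.85 and 1.63 to 1.12 and 0.897, and that of Incenp to Cdca8 from 1.65 and 1.68 to 1.29 and 1.15.

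The checkpoint ratio of Bub1b to Bub3 went from 0.507 and 0.529 to 0.338 and 0.346, and the centralspindlin ratio of Kif23 to Racgap1 from 0.255 and 0.300 to 0.198 and 0.204. The ratio of the phosphatase gene Cdc25b to the kinase gene Wee1 went from 2.71 and 2.80 to 1.67 and 1.60, although both genes fell. Smc2 and Smc4 kept the closest ratio, at 0.499 and 0.564 in the solvent cultures and 0.478 and 0.492 in the induced ones. Higher after treatment were Tpx2 to Aurka, from 1.35 and 1.34 to 1.62 and 1.91, and Ccnb1 to Cdk1, from 1.58 and 1.60 to 1.76 and 1.75. With 2 libraries against 2, the smallest p of an exact permutation test is 0.33 for each ratio, and no ratio was tested further.

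**Figure D3:**
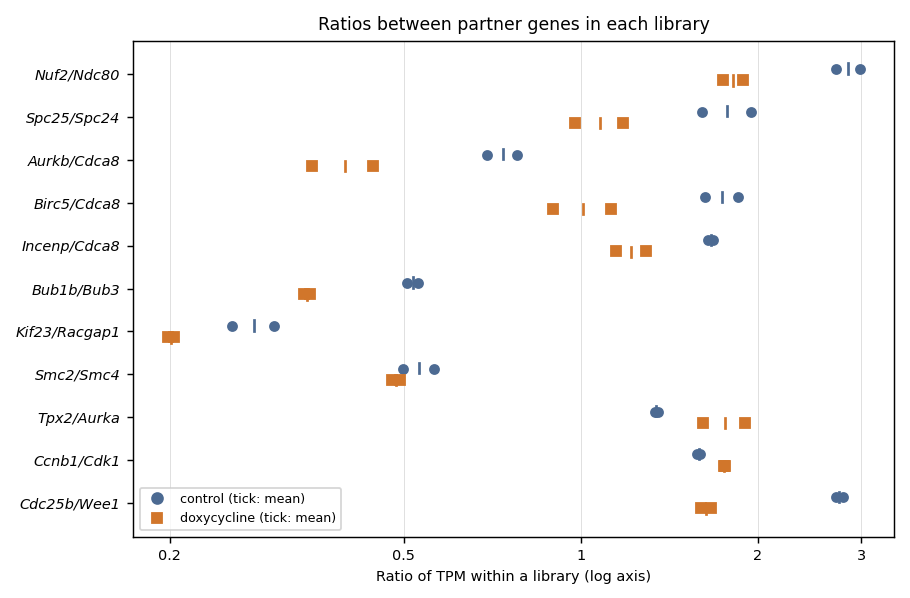
Ratio of TPM between partner genes within each library, on a log axis. Circles are the 2 controls, squares the 2 doxycycline libraries, and ticks the group means. The 11 pairs were chosen after the values were seen; gaps between the groups are wide for Nuf2/Ndc80 and Aurkb/Cdca8 and narrow for Smc2/Smc4.

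The rest of the cell-cycle machinery was read from 8 further lists with 168 genes, all of them tested. Over these lists 34 were higher and 57 lower, or 54.2% called against 64.4% of all genes tested. Their median log2 change was -0.10, against -0.04 over all genes tested. The counts of each list below are to be read beside 29.0% higher and 35.4% lower among all genes tested. Of 33 other kinetochore and centromere genes, 3 were higher and 7 lower, a called share of 30.3%. Sgo2a, a protector of centromeric cohesin, Cenph and Cenpp fell (log2 -0.86, -0.77 and -0.56), and Cenpq, Cenpo and Sgo1 rose (0.68, 0.37 and 0.24). Of 35 other spindle, centrosome and midbody genes, 6 were higher and 13 lower. The augmin subunit Haus8, the motor Kif15 and the midbody protein Cep55 fell (-0.84, -0.76 and -0.70), whereas Rcc1, which charges RAN at chromosomes, the importin Kpna2 and Spag5 rose (0.61, 0.53 and 0.48). The lower share was 21.2% in the kinetochore list and 37.1% in the spindle list, beside 35.4% of all genes tested.

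Of 18 APC/C subunits and regulators 6 were higher and 6 lower. Anapc2, Fbxo5, which encodes the APC/C inhibitor EMI1, and Ube2d1 fell (log2 -0.67, -0.56 and -0.49), and Ube2s, the chain-elongating enzyme, Anapc16 and Anapc1 rose (0.59, 0.54 and 0.51). Of 18 other regulators of entry and exit 4 were higher and 6 lower. Cdc14a, Ccnf and Mastl, the Greatwall kinase, fell (-0.80, -0.80 and -0.79), while Bora, an activator of Aurora A towards PLK1, Pkmyt1, an inhibitory kinase of CDK1, and Ensa rose (0.67, 0.51 and 0.43). Of 16 cohesin and condensin II genes 3 were higher and 2 lower: Pds5a, Nipbl and Wapl rose (0.79, 0.30 and 0.19) and Esco2 and Stag2 fell (-0.59 and -0.22).

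All 7 called changes of at least 1 on the log2 scale among the 168 genes were in the RB family and CDK inhibitor lists. Of 12 MuvB, DREAM and RB family genes 4 were higher and 3 lower. Rb1, the retinoblastoma gene, stood at 42.2 and 51.3 TPM in both solvent libraries and at 8.72 and 8.98 TPM with doxycycline (log2 -2.27, SE 0.10, adjusted p = 2.0e-07), and Tfdp2 and Rbl2, which encodes p130, fell (-1.45 and -1.02). E2f4, Lin52 and Tfdp1 rose (0.40, 0.30 and 0.19). Of 14 CDK inhibitors and p53 targets 2 were higher and 10 lower, led by falls of Sesn1, Cdkn2d and Cdkn1c (-2.22, -1.48 and -1.36), with rises of Sesn2 and Cdkn2a (1.63 and 0.32). The lower share of this list was 71.4%, beside 35.4% of all genes tested.

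Of 22 S phase genes 6 were higher and 10 lower. Gmnn, which encodes the licensing inhibitor geminin, Rrm2, a ribonucleotide reductase subunit, and Chaf1b fell (log2 -0.92, -0.65 and -0.61), and the helicase genes Mcm2 and Mcm6 rose with Ung (0.91, 0.54 and 0.45). Among the genes named from these 8 lists, 7 lost their call when a library was left out: Cdkn2a, Cenpo, Lin52, Sgo1, Stag2, Tfdp1 and Wapl (adjusted p from 0.0505 to 0.25). Each of these 7 also lost it in at least 1 other setting.

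**Figure D4:**
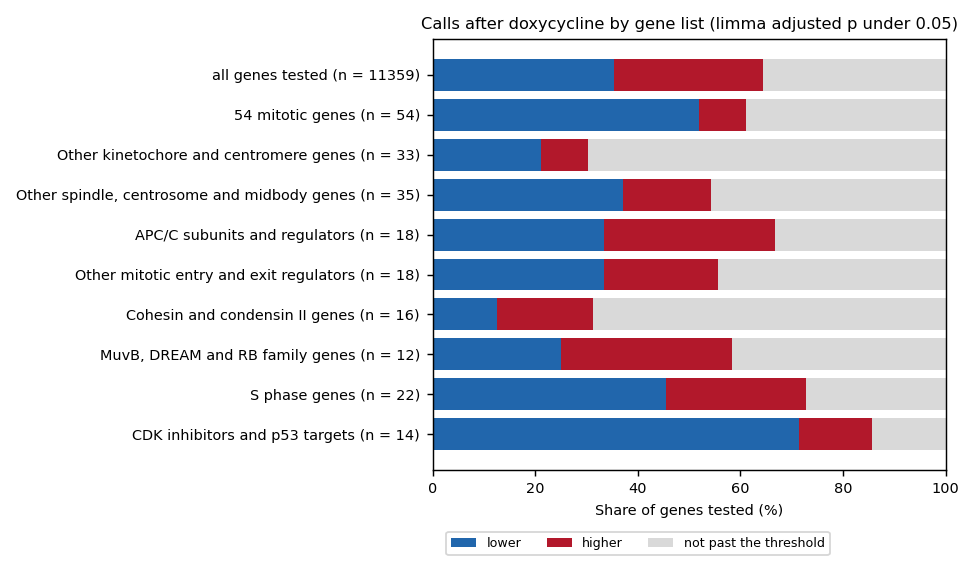
Share of genes called lower (blue), higher (red) or not past the threshold (grey) in the limma test, for all genes tested, the 54 mitotic genes and 8 further cell-cycle lists. The 54 mitotic genes were called about as often as all genes (61.1% and 64.4%), with 51.9% lower against 35.4%.

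Some values carry a limit of counting. In GENCODE M21, exons of 11 of the 54 genes overlap another gene: Ccna2, Cdc25b, Plk1, Nek2, Cdc20, Ube2c, Kif4, Prc1, Kif20a, Ncapg and Foxm1. The longest stretch shared by a pair of exons ran from 53 to 977 bases, and the whole overlap may be longer. No source used here says whether counting used strand, and reads there may not be told apart. The overlaps of Foxm1 (longest stretches of 97 and 144 bases) lie on the same strand, so stranded counting would not separate those reads. The overlaps of the others lie on the opposite strand. A pseudogene with at least 97% identity over at least 100 bases was found for Ccnb1, Cenpe, Mki67, Mybl2, Racgap1 and Spc24, the longest match being 1294 bases for Ccnb1, so the values of these 6 genes are uncertain.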

How the data were processed

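Per the file headers, the authors deposited 2 matrices of gene symbols by libraries, in TPM and in FPKM. The submitters' processing notes name the build mm39. How reads were aligned and quantified, and with which annotation, is not given in the sources used here. Per the labels' protocols, RNA was column-purified and libraries were made with an mRNA kit for Illumina sequencing. Within a library the deposited TPM were a constant (3.08 to 3.14) times the deposited FPKM. Neither holds counts, so no depth or counting interval can be given.

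The 11359 genes averaging 1 TPM or more were tested on log2(TPM + 1), 2 doxycycline against 2 control libraries, with limma 3.58.1 (lmFit, eBayes with a trend) in R 4.3.3, adjusted by Benjamini-Hochberg over all genes tested. On this scale changes of low genes are understated. Where a single library was left in a group, its spread was assumed to be that of the other group. The test was tried on simulated data. Tables and figures were made with Python 3.11.15, pandas 2.3.3 and matplotlib 3.10.9. Pseudogene copies were sought with blastn 2.17.0 among transcript sequences of GENCODE M21. Exon overlaps were taken from the exon coordinates of GENCODE M21, which may differ from the annotation behind the expression values. No set test was run. The 54 genes and the lists were chosen with earlier results of these data known. Library values were to be printed for genes that did not pass, for the 3 passing genes of each role with the largest change, and for Cdk1, Ccnb1, Plk1, Aurkb, Cdc20, Mki67, Top2a and Foxm1. Those of Tpx2, which rose, were printed outside this rule. From each further list up to 3 passing genes in each direction were to be named. Partner ratios were added after the values were seen. There were 14 alternative settings: pseudocounts of 0.1 and 0.5, no filter, a mean of at least 5 TPM, FPKM, 2 other scalings, 2 further variance models, a block for replicate number, and the omission of each library.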

Additional observations from a re-analysis of the deposited data

How the results depend on the processing

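Of the 28 genes called lower, 17 kept their call in all 14 alternative settings, and of the 5 called higher 1 did (Anln). Of the 21 that did not pass, 13 passed in 0 settings. No called gene among the 54 changed sign in any setting. The median change of the 54 was -0.14 under quantile normalization, where the median over all genes was 0.05. With each library left out in turn the number higher ranged from 1 to 6, with 1 without DOX replicate 2, the number lower from 19 to 26 and the median from -0.25 to -0.16. The counts over all 11359 genes, over the 8 further lists together and of groups apart among the 54 stayed within 1.5 times the main ones. Small counts of single lists were less steady. With no filter Cdkn2a, among the 2 higher genes of the CDK inhibitor list, lost its call (limma adjusted p = 0.077). So did Cenpo and Sgo1, among the 3 higher genes of the kinetochore list (0.092 and 0.074). A replicate block, using the numbers in the sample titles, gave 5 higher and 29 lower among the 54, and 3387 higher and 4114 lower over all genes. No label ties equal numbers to a common batch, and deviations of libraries with the same number were not correlated (-0.0053). The depth of the libraries is unknown, so it could not be weighed. The cause of these shifts was not tested.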
